A study of Homo sapiens with 6 samples.

Results

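Laminins and integrins are the matrix chains and cell-surface receptors through which a cell holds on to its basement membrane. The genes were chosen by name: array features annotated with a single symbol that is a laminin alpha, beta or gamma chain (LAMA, LAMB or LAMC with a number) or an integrin alpha or beta chain (ITGA or ITGB), with the brightest feature kept for each gene. The rule gave 34 genes, 8 laminins and 26 integrins, out of 22465 genes with a feature of 1 symbol. A further 3 features carried a laminin or integrin symbol together with another symbol and were left out by the rule. They were LAMB3 with MIR4260, LAMA5 with MIR4758 and ITGA1 with PELO. The cells were U87MG, an established line from a human glioblastoma, into which lentiviruses had brought short hairpin RNAs. The control cells carried a hairpin against GFP (shGFP), and the other cells carried 1 of 2 hairpins named sh50 and sh52, in a series titled for genes regulated by SAT1. All 3 groups went through infection and drug selection and were grown for 5 days afterwards, and the labels state no other treatment. Each group had 2 arrays, numbered replicate 1 and 2. The labels do not say whether these were separate infections or cultures, so a p-value speaks to no more than the spread of these arrays.

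A laminin is a cross-shaped trimer of 1 alpha, 1 beta and 1 gamma chain that is secreted and polymerises into the basement membrane. An integrin is a heterodimer of 1 alpha and 1 beta chain that spans the plasma membrane and couples the matrix outside to talin, kindlin and actin inside. In glioma both families are known for their part in invasion along blood vessels and brain tracts.

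SAT1, which encodes a polyamine acetyltransferase, was read first. Its log2 values were 9.45 and 8.96 with shGFP, 9.36 and 8.35 with sh50, and 10.83 and 7.84 with sh52, replicate 1 before replicate 2 here and in every pair of values below. The array labelled sh52 replicate 1 therefore carried the highest SAT1 value of the 6, and the design text states no target for either hairpin. Every fitted sh52 difference below draws on that array. The value without it is given where it moves by over 1.5 times, for SAT1, the family medians and the highest and lowest differences. It is not given for the medians of gene lists or for other features. SAT1 itself differed from shGFP by -0.35 ± 0.96 (SE, limma; adjusted p = 0.982) with sh50 and 0.13 ± 0.96 (adjusted p = 0.98) with sh52. The sh52 value was -1.36 without that array. On sh50 replicate 1, SAT1 at 9.36 also lay between the controls. The median of all array features lay between 3.98 and 4.12 on the 6 arrays. Of the U87MG markers with a feature, 7 of 7 passed the intensity filter described below, with means from 6.89 (NES) to 16.2 (ANXA2). Of 5 astrocyte markers 2 passed, GFAP with a mean of 4.48 and SLC1A3, which stood at 6.84 and 7.20 with shGFP, 6.49 and 8.17 with sh50, and 8.15 and 8.41 with sh52. Of the epithelial markers 4 of 7 passed, of the endothelial 2 of 5 and of the platelet markers 1 of 4. Their highest gene means were 7.13, 5.70 and 4.34. The glioma and mesenchymal markers summed to between 81.5 and 84.4 (log2 units) on the shGFP arrays, 84.2 to 84.9 with sh50 and 86.6 to 88.1 with sh52. The sum overlapped the controls with sh50 and lay above them on both sh52 arrays. Most of that gap came from CHI3L1, a secreted glycoprotein, which differed by 2.59 with sh50 and 3.51 with sh52, while VIM stood lower than both controls on all 4 hairpin arrays. The part of these markers in the differences below was not tested. In such bulk samples, a change in the mix of cells and a change of RNA per cell cannot be told apart.

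Of the 34 genes, 24 passed the filter, a mean over the 6 arrays at or above 3.98, the median feature. These were 6 of 8 laminins and 18 of 26 integrins. The other 10 lay between 3.06 and 4.004 on every array, and none of them varied by more than 0.23 over the 6 arrays. They were the laminins LAMB4 and LAMC3, the integrin alpha chains ITGA8, ITGA9, ITGAL and ITGAM, and the beta chains ITGB2, ITGB4, ITGB6 and ITGB7. ITGB2 and ITGB7 are the beta chains of leukocyte integrins, and ITGAL and ITGAM are partners of ITGB2. Of 7 blood and immune markers with a feature, 5 were also under the filter, among them PTPRC at 3.10 to 3.37 and CD14 at 2.99 to 3.11. LCP1, at 5.21 to 6.34, and CSF1R, at 4.85 to 5.47, passed, and all 4 hairpin arrays of LCP1 lay above both controls. The 7 markers summed to 27.3 to 27.5 with shGFP, 27.3 to 28.2 with sh50 and 28.2 to 28.6 with sh52, and their part in the differences was not tested. ITGB4, the partner of ITGA6 in hemidesmosomes, stood at 3.68 to 3.87.

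**Figure D1:**
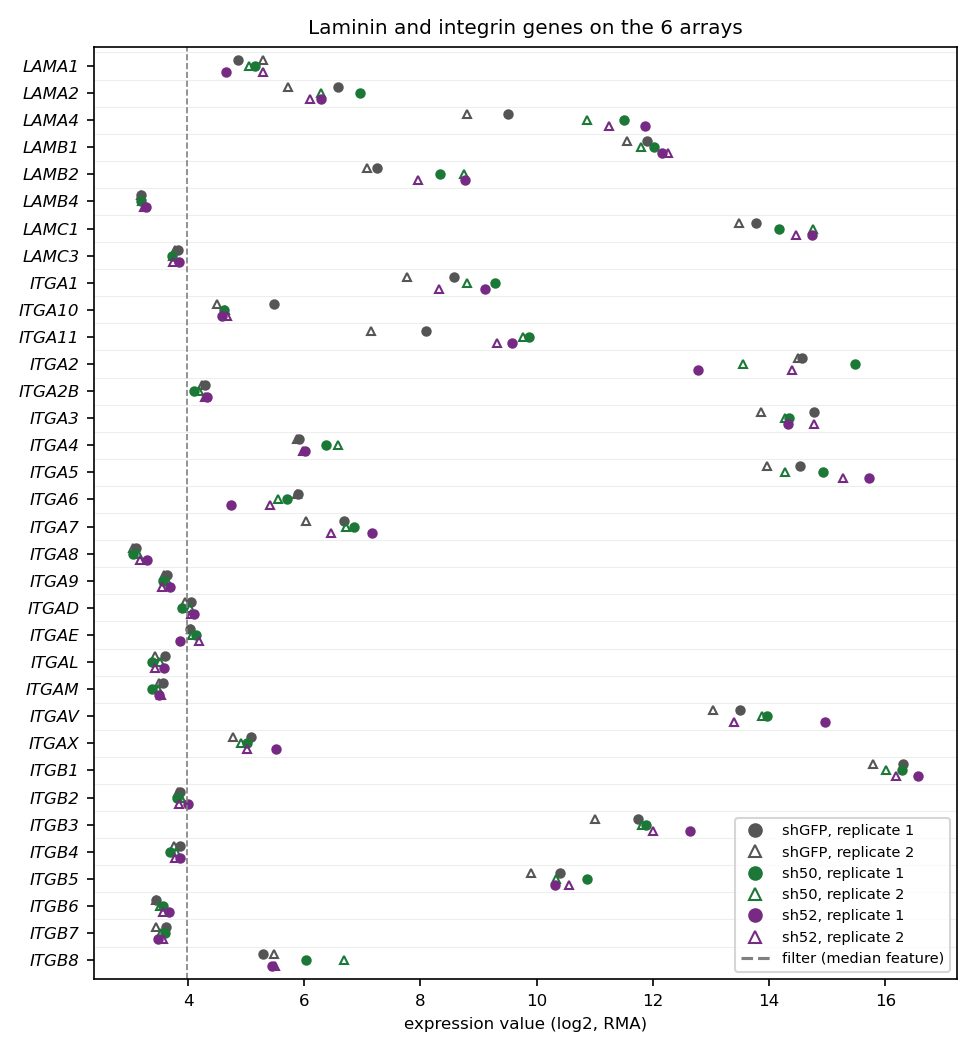
Expression value (log2, RMA; horizontal axis) of each of the 34 laminin and integrin genes on the 6 arrays, with filled circles for replicate 1, open triangles for replicate 2 and colours for the hairpins. The 10 genes whose mean lies left of the dashed filter line stay within 3.06 to 4.004, while LAMA4 and ITGA11 show both shGFP arrays left of all 4 hairpin arrays. Levels of different genes come from different probes and are not comparable.

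LAMA4, LAMB2, LAMC1 and ITGA11 were the members with an unadjusted p under 0.05 in both comparisons of a hairpin with shGFP, which share the same controls. The share of all features under this p in both comparisons was not counted. For single comparisons it was 8.25% with sh50 and 8.78% with sh52. The promoters are shown because these 4 genes were higher together, so that a reader can set the sequences side by side. Each runs from 250 bases before to 50 bases after the gene's start, 5′ to 3′ on the gene's strand, from RefSeq (GRCh38.p14). Capitals mark the GC box GGGCGG on either strand.
LAMA4, chr6:112254518-112254817, minus strand: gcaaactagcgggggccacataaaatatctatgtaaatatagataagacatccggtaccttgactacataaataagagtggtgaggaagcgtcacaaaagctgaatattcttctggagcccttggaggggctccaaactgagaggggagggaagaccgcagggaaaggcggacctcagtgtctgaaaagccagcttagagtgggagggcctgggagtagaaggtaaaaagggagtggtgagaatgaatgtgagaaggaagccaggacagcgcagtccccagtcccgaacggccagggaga
LAMB2, chr3:49133001-49133300, minus strand: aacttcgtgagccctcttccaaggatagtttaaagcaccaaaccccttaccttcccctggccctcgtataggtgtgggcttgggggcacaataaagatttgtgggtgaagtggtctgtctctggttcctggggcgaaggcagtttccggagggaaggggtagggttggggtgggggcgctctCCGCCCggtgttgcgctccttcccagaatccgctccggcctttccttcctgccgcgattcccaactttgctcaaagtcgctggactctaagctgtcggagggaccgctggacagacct
LAMC1, chr1:183023170-183023469, plus strand: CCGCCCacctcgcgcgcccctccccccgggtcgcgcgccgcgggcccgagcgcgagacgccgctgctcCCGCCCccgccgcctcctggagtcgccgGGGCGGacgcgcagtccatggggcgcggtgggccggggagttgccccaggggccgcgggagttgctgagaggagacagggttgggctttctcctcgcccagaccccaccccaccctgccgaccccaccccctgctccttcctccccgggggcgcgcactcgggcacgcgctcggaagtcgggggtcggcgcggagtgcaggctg
ITGA11, chr15:68432114-68432413, minus strand: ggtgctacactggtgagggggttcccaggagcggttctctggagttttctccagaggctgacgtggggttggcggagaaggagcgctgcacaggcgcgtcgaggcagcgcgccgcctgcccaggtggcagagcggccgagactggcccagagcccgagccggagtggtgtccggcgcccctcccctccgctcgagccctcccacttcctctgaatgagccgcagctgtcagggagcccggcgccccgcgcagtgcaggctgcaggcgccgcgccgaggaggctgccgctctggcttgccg
The 4 windows differ in base composition. LAMC1 has a GC content of 79.0% with 41 CpG dinucleotides and ITGA11 72.0% with 29, while LAMB2 has 58.7% with 15 and LAMA4 51.3% with 8, beside a median of 58.7% over 35116 RefSeq promoters of this length. LAMC1 holds 3 GC boxes and LAMB2 holds 1, a motif found in 45.0% of all these promoters. Another 5 motifs were searched on both strands and are in none of the 4 windows. The CCAAT box (CCAAT) is in 34.6% of all promoters. The TATA box (TATAAA) is in 11.5% of them. The AP-1 site (TGANTCA) is in 7.71%. The TEAD site (GGAATG) is in 14.0%. The E-box (CACGTG) is in 7.26%. RefSeq promoters were found for 23 of the 34 genes.

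The first comparison asks which laminin and integrin genes differ between sh50 and shGFP. LAMA4, LAMB2 and LAMC1 among laminins and ITGA11, ITGB8 and ITGA4 among integrins were the genes that stood highest relative to their spread. By limma none of the 24 genes passed an adjusted p of 0.05, and among all 33764 features tested 0% passed (0 features). At an unadjusted p under 0.05, 6 of the 24 differed, against 8.25% of all features; 6 were higher, against 4.06%, and 0 were lower, against 4.19%. The estimate was above 0 for 18 of the 24, against 47.8% of all features. For 11 of the 24 both sh50 arrays lay above both controls, against 18.4% of all features, and for 2 both lay below, against 20.9%. The median difference was 0.65 for the 6 laminins and 0.23 for the 18 integrins, beside -0.012 for all features tested. The integrin median was 0.031 without sh50 replicate 1 and 0.53 without shGFP replicate 1. A comparison of 2 arrays with 2 cannot go below an exact permutation p of 0.333, so single genes have no test beyond the fit.

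Among the laminin alpha chains, LAMA4, a chain of vessel and muscle basement membranes, showed the widest separation. Its log2 values were 9.50 and 8.80 with shGFP, 11.50 and 10.86 with sh50, and 11.86 and 11.24 with sh52. All 4 hairpin arrays lay above both controls. The fitted difference for sh50 was 2.03 ± 0.37 (SE), 4.08-fold (adjusted p = 0.475). Against the control of the same number it was 1.99 for replicate 1 and 2.06 for replicate 2, nearly equal although the arrays of each pair differ. LAMA2, the alpha chain of muscle and peripheral nerve, stood at 6.58 and 5.73 with shGFP, 6.96 and 6.30 with sh50, and 6.28 and 6.10 with sh52. Each hairpin overlapped the controls, and both sh52 arrays lay below both sh50 arrays. LAMA1, an alpha chain of embryonic basement membranes, stood at 4.85 and 5.29 with shGFP, 5.15 and 5.05 with sh50, and 4.65 and 5.29 with sh52. Its groups overlapped.

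Of the beta chains, LAMB2, known from the neuromuscular junction and the kidney filter, stood at 7.25 and 7.08 with shGFP, 8.34 and 8.76 with sh50, and 8.76 and 7.95 with sh52. The hairpin arrays again all lay above both controls. The sh50 difference was 1.38 ± 0.31 (SE), 2.61-fold (adjusted p = 0.475), with 1.09 in the number 1 pair and 1.68 in the number 2 pair. LAMB1, the widely made beta chain, stood at 11.91 and 11.55 with shGFP, 12.02 and 11.80 with sh50, and 12.15 and 12.26 with sh52. The sh50 arrays of LAMB1 straddled the higher control, and both sh52 arrays lay above it. LAMC1, the gamma chain of most laminins, stood at 13.78 and 13.48 with shGFP, 14.16 and 14.76 with sh50, and 14.74 and 14.46 with sh52. The 4 hairpin arrays lay above both controls, and the same-number differences for sh50 were 0.38 and 1.28. Thus an alpha, a beta and a gamma chain each had hairpin arrays apart from the controls, while LAMA1 and LAMA2 did not. LAMB3, outside the members, stood at 5.71 and 6.07 with shGFP, 5.98 and 5.95 with sh50, and 7.13 and 6.68 with sh52. LAMA5, also outside, stood at 5.18 and 4.94 with shGFP, 5.76 and 5.58 with sh50, and 5.60 and 5.16 with sh52. Both sh52 arrays of LAMB3 and both sh50 arrays of LAMA5 lay above both controls, and the other hairpin overlapped them in each.

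Of the collagen-binding alpha chains, ITGA11, a receptor of fibroblasts for fibrillar collagen, stood furthest apart. It stood at 8.09 and 7.14 with shGFP, 9.86 and 9.77 with sh50, and 9.58 and 9.31 with sh52. All hairpin arrays lay above both controls. The sh50 difference was 2.20 ± 0.33 (SE), 4.59-fold (adjusted p = 0.475). The number 1 pair differed by 1.77 and the number 2 pair by 2.63, a gap set by the controls, which differed by 0.95. ITGA1, which binds collagen IV and laminin, stood at 8.58 and 7.77 with shGFP, 9.28 and 8.80 with sh50, and 9.12 and 8.32 with sh52. Its sh50 arrays lay above both controls and its sh52 arrays did not both do so. The feature that ITGA1 shares with PELO, left out by the rule, differed by 0.18 with sh50 and 0.088 with sh52, and its groups overlapped. ITGA10, a cartilage collagen receptor, stood at 5.47 on shGFP replicate 1 and at 4.50 to 4.66 on the other 5 arrays. Its sh50 difference of -0.36 ± 0.32 (SE; adjusted p = 0.881) was the lowest of the 24 genes, and without shGFP replicate 1 it was 0.13.

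ITGA2, the collagen receptor chain of platelets and epithelia, varied more between arrays of one hairpin than between groups. It stood at 14.57 and 14.50 with shGFP, 15.48 and 13.55 with sh50, and 12.78 and 14.39 with sh52. The controls nearly coincided, while the sh50 arrays lay on either side of them, 1.93 apart, and the sh52 arrays were 1.61 apart with replicate 1 the lower. The same-number differences for sh50 were 0.91 and -0.94. No other member had replicates over 1 log2 unit apart in both hairpins.

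ITGAV, the beta chains that pair with it, and ITGA5 are among the chains of RGD-binding integrins. ITGB8, which with ITGAV activates latent TGF-beta, stood at 5.29 and 5.49 with shGFP, 6.02 and 6.69 with sh50, and 5.44 and 5.505 with sh52. Both sh50 arrays lay above all 4 others. The sh50 difference was 0.96 ± 0.25 (SE), 1.95-fold (adjusted p = 0.487), and it ranged from 0.63 to 1.30 when single arrays were left out. ITGB3, the vitronectin receptor chain, stood at 11.74 and 11.003 with shGFP, 11.88 and 11.81 with sh50, and 12.65 and 11.999 with sh52. Its hairpin arrays all lay above both controls. ITGAV, the partner of several beta chains, stood at 13.49 and 13.03 with shGFP, 13.96 and 13.87 with sh50, and 14.97 and 13.40 with sh52, and ITGB5, another vitronectin receptor chain, stood at 9.91 to 10.86 over the 6 arrays. Both sh50 arrays lay above both controls for ITGAV and the groups overlapped for ITGB5. ITGA4, whose dimer with ITGB1 binds VCAM1 and fibronectin, stood at 5.91 and 5.87 with shGFP, 6.38 and 6.58 with sh50, and 6.02 and 5.97 with sh52. As for ITGB8, both sh50 arrays lay above all 4 others.

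**Figure D2:**
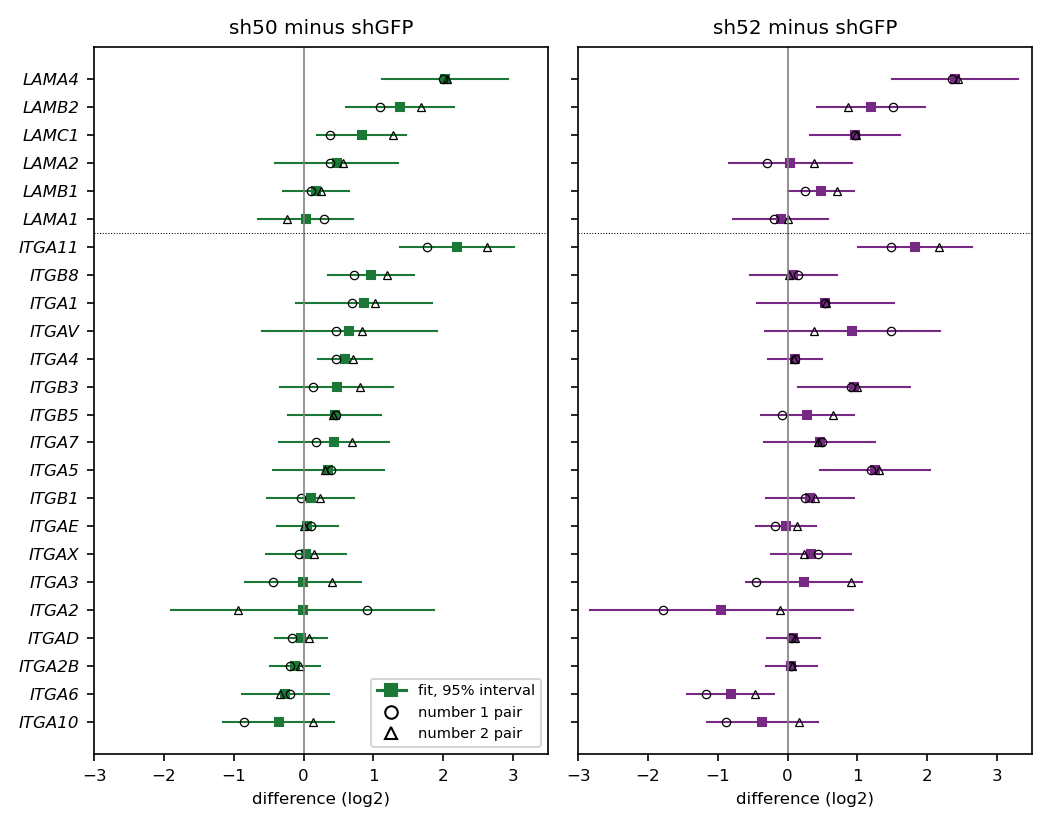
Fitted difference from shGFP (log2; horizontal axis) of the 24 genes that passed the filter, for sh50 at left and sh52 at right, with squares for the fit, lines for 95% intervals, and open circles and triangles for the same-number pairs 1 and 2. LAMA4 at 2.03 and 2.40 and ITGA11 at 2.20 and 1.83 stand furthest right, and the ITGA2 pairs fall on opposite sides of 0 for sh50.

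The same question was asked of sh52. LAMA4, LAMB1, LAMB2, LAMC1, ITGA11, ITGA5 and ITGB3 stood above the controls with an unadjusted limma p under 0.05, and ITGA6 stood below. Both sh52 arrays of ITGA2 also lay below both controls, without such a p. None of the 24 genes passed the adjusted p (0% of all features did). At an unadjusted p under 0.05, 8 differed, against 8.78% of all features; 7 were higher, against 4.27%, and 1 was lower, against 4.51%. The estimate was above 0 for 19 of the 24, against 50.1% of all features. When the array labelled sh52 replicate 1 was left out, the counts higher and lower were 4 and 0, against 2.54% and 2.37%, from a fit in which sh52 has 1 array and is assumed to vary like the other groups. Without shGFP replicate 2, 4 genes had such a p in either direction, against 5.63% of all features. For 10 of the 24 both sh52 arrays lay above both controls, against 20.2% of all features, and for 2 both lay below, against 19.5%. The median difference was 0.72 for laminins and 0.26 for integrins, beside 0.00073 for all features tested. Without that array the medians were 0.66 and 0.12. The integrin median was 0.072 without shGFP replicate 2 and 0.51 without shGFP replicate 1.

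The sh52 difference of LAMA4 was 2.40 ± 0.37 (SE), 5.28-fold (adjusted p = 0.501), with 2.36 and 2.44 in the same-number pairs, and it was 2.09 without the array labelled sh52 replicate 1. ITGA11 differed by 1.83 ± 0.33 (SE), 3.55-fold (adjusted p = 0.501), and by 1.69 without that array. For both genes the separation from the controls therefore did not rest on the array labelled sh52 replicate 1 alone. LAMB2 differed by 1.19 ± 0.31 (SE; adjusted p = 0.501), with 1.51 and 0.87 in the pairs, and by 0.79 without that array. LAMC1 gave 0.96 and 0.98 in the pairs, closer together than with sh50.

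ITGA5, the fibronectin receptor alpha chain, stood at 14.53 and 13.97 with shGFP, 14.93 and 14.28 with sh50, and 15.72 and 15.28 with sh52. Both sh52 arrays lay above the other 4. The sh52 difference was 1.25 ± 0.32 (SE), 2.38-fold (adjusted p = 0.501), with 1.19 and 1.31 in the pairs and 1.03 without the array labelled sh52 replicate 1. ITGB3 gave pair differences of 0.90 and 1.00. ITGB1, the shared beta chain of most matrix receptors, stood at 16.31 and 15.79 with shGFP, 16.28 and 16.02 with sh50, and 16.56 and 16.18 with sh52, with overlapping groups. Of the other 2 features annotated to ITGB1, one stood at 5.87 to 6.40 and one at 3.04 to 3.42, and neither was used.

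Of the laminin-binding alpha chains, ITGA6, a receptor also used as a glioma stem cell marker, stood at 5.90 and 5.88 with shGFP, 5.71 and 5.55 with sh50, and 4.73 and 5.41 with sh52. All 4 hairpin arrays lay below both controls, opposite to LAMA4, LAMB2 and LAMC1. The sh52 difference was -0.82 ± 0.25 (SE; adjusted p = 0.52) and the sh50 difference was -0.26 ± 0.25 (adjusted p = 0.892). Without the array labelled sh52 replicate 1 the sh52 difference was -0.48. ITGA3, the other main laminin receptor chain, stood at 14.77 and 13.87 with shGFP, 14.34 and 14.28 with sh50, and 14.32 and 14.78 with sh52. ITGA7, the laminin receptor of muscle, stood at 6.68 and 6.03 with shGFP, 6.86 and 6.72 with sh50, and 7.16 and 6.46 with sh52. The sh50 arrays of ITGA7 lay above both controls, and for ITGA3 the groups overlapped.

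With sh52, ITGA2 had the lowest difference of the 24 genes, -0.95 ± 0.76 (SE; adjusted p = 0.752). Its number 1 pair differed by -1.79 and its number 2 pair by -0.11. Without the array labelled sh52 replicate 1 the fitted difference was -0.15. ITGA10 differed by -0.36 ± 0.32 (SE; adjusted p = 0.783) and LAMA1 by -0.099 ± 0.27 (adjusted p = 0.946). Without the array labelled sh52 replicate 1 the LAMA1 difference was 0.22. The leukocyte and platelet chains that passed the filter are given by their ranges. ITGAX stood at 4.77 to 5.52, ITGAD at 3.90 to 4.11, ITGAE at 3.86 to 4.19 and ITGA2B, the platelet fibrinogen receptor chain, at 4.10 to 4.33. In sh50, ITGA2B differed by -0.12 ± 0.15 (SE; adjusted p = 0.933) and ITGAD by -0.038 ± 0.15 (adjusted p = 0.988).

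**Figure D3:**
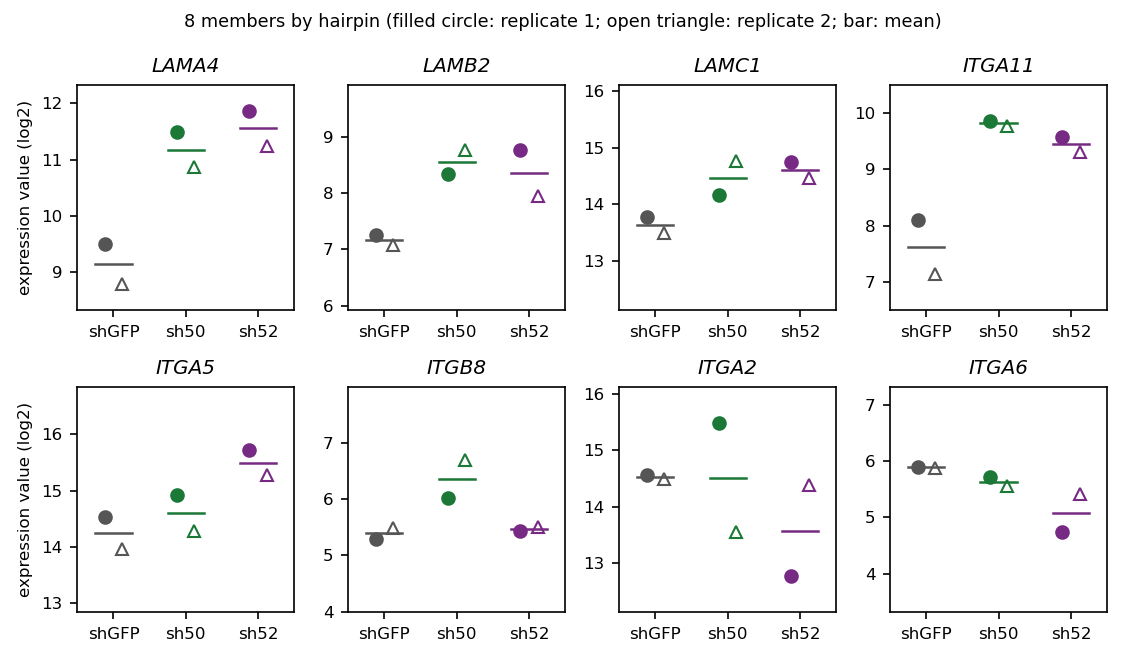
Expression value (log2; vertical axes, each spanning 4 units but centred on its gene) of 8 laminin and integrin genes by hairpin, with a filled circle for replicate 1, an open triangle for replicate 2 and a bar for the mean of 2 arrays. LAMA4, LAMB2, LAMC1 and ITGA11 have all hairpin arrays above the controls, ITGA5 is apart with sh52, ITGB8 is apart with sh50, and ITGA2 has replicates in opposite order in the 2 hairpins.

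Whether the hairpins differ from each other was tested directly. None of the 24 genes passed (0% of all features did). Of the 24, 3 had an unadjusted p under 0.05, against 6.33% of all features; 1 was higher with sh52, against 2.96%, and 2 were lower, against 3.38%. Both sh52 arrays lay above both sh50 arrays for 5 genes, against 17.3%, and below for 5, against 16.6%. The estimate was above 0 for 12 of the 24, against 52.1% of all features. The higher gene was ITGA5 at 0.90 ± 0.32 (SE; adjusted p = 0.769), and the lower genes were ITGB8 at -0.88 ± 0.25 (adjusted p = 0.719) and ITGA4 at -0.49 ± 0.16 (adjusted p = 0.743). The fibronectin receptor chain ITGA5 had the higher estimate with sh52, and ITGB8 and ITGA4, partners of ITGAV and ITGB1, with sh50. None of these 3 passed the adjusted p, so none was called different between the hairpins. ITGB3 differed by 0.48 ± 0.33 (SE; adjusted p = 0.866), LAMA4 by 0.37 ± 0.37 (adjusted p = 0.897) and ITGA6 by -0.55 ± 0.25 (adjusted p = 0.802). ITGA2 differed by -0.94 ± 0.76 (SE; adjusted p = 0.879), and its interval from -2.82 to 0.95 was the widest. Leaving out the array labelled sh52 replicate 1 gave 0.15 for ITGB3, 0.065 for LAMA4, -0.21 for ITGA6 and -0.13 for ITGA2. Without sh50 replicate 2, LAMA4 differed by 0.057, ITGA5 by 0.57 and ITGB8 by -0.55. For LAMA4 the 95% interval of the difference between hairpins ran from -0.53 to 1.28, for LAMB2 from -0.96 to 0.58 and for LAMC1 from -0.51 to 0.78. These intervals allow differences of either sign. The median difference between the hairpins was 0.0047 for laminins and 0.0097 for integrins, beside 0.014 for all features tested. They were 0.030 and -0.0074 when the array labelled sh52 replicate 1 was left out. Without the array labelled sh52 replicate 1, 0 genes had an unadjusted p under 0.05, against 4.05% of all features.

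The arrays were also compared by replicate number, within each hairpin. Several integrins and the laminins LAMA2 and LAMA4 were higher on replicate 1 than on replicate 2 whatever the hairpin. None of the 24 genes passed an adjusted p of 0.05, while 9 of 33764 features did (0.0267%). Of the 24, 7 had an unadjusted p under 0.05, against 10.4% of all features; 7 were higher on replicate 1, against 4.01%, and 0 were lower, against 6.34%. With the shGFP pair left out 2 had such a p, against 4.57%. The estimate was above 0 for 18 of the 24, against 41.6% of all features. In 10 of the 24 the replicate 1 array was the higher in all 3 hairpins, against 11.3% of all features, and in 1, ITGB8, it was the lower in all 3, against 20.1%. The median difference was 0.17 for laminins and 0.28 for integrins, beside -0.039 for all features tested. When 1 array was left out, the laminin median ran from 0.082 to 0.39 and the integrin median from 0.15 to 0.39.

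LAMA4 differed between the replicates by 0.70 with shGFP, 0.63 with sh50 and 0.62 with sh52, a nearly constant step (fit 0.65 ± 0.13, SE; adjusted p = 0.294). This step is smaller than the difference of either hairpin from shGFP at 2.03 and 2.40. ITGA1 differed by 0.81, 0.49 and 0.80 (fit 0.70 ± 0.14, SE; adjusted p = 0.308), and its step between replicates was of the size of its hairpin differences of 0.86 and 0.54. ITGAV had the highest fitted value, 0.70 ± 0.31 (SE; adjusted p = 0.535), made of 0.46, 0.09 and 1.57, the last between the sh52 arrays. Without either sh52 array it was 0.27. LAMA2 differed by 0.85, 0.66 and 0.18 (fit 0.57 ± 0.18, SE; adjusted p = 0.407), more than in either hairpin comparison. The lowest were LAMA1 at -0.33 ± 0.19 (SE; adjusted p = 0.652), ITGB8 at -0.31 ± 0.17 (adjusted p = 0.635), ITGA6 at -0.17 ± 0.21 (adjusted p = 0.877) and ITGAE at -0.092 ± 0.15 (adjusted p = 0.917). SAT1 also stood higher on replicate 1 in all 3 hairpins, by 0.48, 1.02 and 2.99, and its part in the differences of these genes was not tested.

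**Figure D4:**
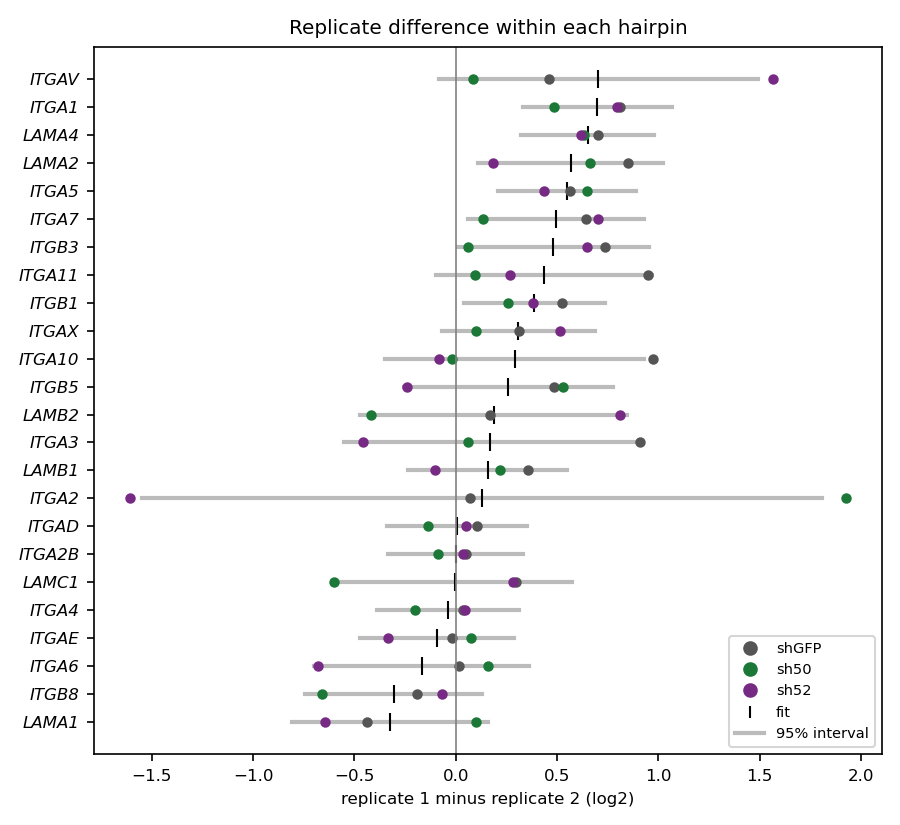
Replicate 1 minus replicate 2 (log2; horizontal axis) of the 24 genes within each hairpin (coloured points), with the fitted difference (tick) and its 95% interval (grey bar). The 3 points of LAMA4 lie together between 0.62 and 0.70, while those of ITGA2 spread from -1.61 to 1.93.

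Other genes of the same pathway were read from 4 lists, of 30 adaptors, 23 basement membrane genes, 22 receptors and 33 ligands, of which 28, 23, 15 and 31 had a feature of 1 symbol. Among 26 tested genes of focal adhesions and integrin adaptors, the proteins that link integrin tails to actin, the median difference was 0.18 with sh50 and 0.022 with sh52. The medians of the gene lists were not taken again without the array labelled sh52 replicate 1, so how far they rest on it was not tested. An unadjusted p under 0.05 was reached by 1 higher gene with sh50 and 2 with sh52, and by 0 lower genes, against 4.06% and 4.27% higher and 4.19% and 4.51% lower among all features. With sh50 it was FERMT2, and with sh52 FERMT2 and the tensin TNS2, named here after their values were seen, as are the genes under this p in the next 3 lists. FERMT2, a kindlin that activates integrins by binding their beta tails, stood at 9.63 and 9.40 with shGFP, 10.13 and 10.04 with sh50, and 10.07 and 10.34 with sh52. No hairpin array of FERMT2 fell within the controls' range, and the differences were 0.57 ± 0.18 and 0.69 ± 0.18 (SE; adjusted p = 0.536 and 0.501). With sh50, FERMT3, a kindlin of blood cells, and TNS1, a tensin, differed by 0.67 ± 0.29 and 0.59 ± 0.59 (SE; adjusted p = 0.628 and 0.901), and ACTN1, an actinin, and ILK, the integrin-linked kinase, by -0.12 ± 0.31 and -0.29 ± 0.22 (adjusted p = 0.981 and 0.836). With sh52, TNS1 and the ILK partner LIMS1 differed by 1.00 ± 0.59 and 0.76 ± 0.33 (SE; adjusted p = 0.676 and 0.588), and PXN, paxillin, and ACTN4 by -0.47 ± 0.35 and -0.66 ± 0.32 (adjusted p = 0.739 and 0.616). With sh52 replicate 2 alone against shGFP, TNS1 differed by 0.23, LIMS1 by 0.38, PXN by -0.0018 and ACTN4 by -0.19.

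Among 12 tested genes of other basement membrane proteins the median was 0.34 with sh50 and 0.25 with sh52. Higher genes with an unadjusted p under 0.05 numbered 2 with sh50 (COL4A5 and SPARC) and 3 with sh52 (SPARC, NID2 and HSPG2), and lower ones 0, against the same 4.06% and 4.27% higher and 4.19% and 4.51% lower. With sh50, NID2, a nidogen that bridges laminin and collagen networks, differed by 1.00 ± 0.44 (SE; adjusted p = 0.629), COL4A5, a collagen IV chain, by 0.87 ± 0.21 (adjusted p = 0.475), COL4A2, another such chain, by -0.035 ± 0.15 (adjusted p = 0.989) and SMOC1, a calcium-binding matrix protein, by -1.34 ± 1.25 (adjusted p = 0.885). With sh52, COL15A1 differed by 1.34 ± 0.66 (SE; adjusted p = 0.62), SPARC, a collagen-binding glycoprotein, by 1.32 ± 0.29 (adjusted p = 0.501), NTN4, a netrin that binds laminin gamma chains, by -0.83 ± 0.42 (adjusted p = 0.632) and SMOC1 by -1.21 ± 1.25 (adjusted p = 0.817). SPARC stood at 13.93 and 13.41 with shGFP, 14.40 and 14.53 with sh50, and 15.32 and 14.65 with sh52. All 4 hairpin arrays of SPARC lay above both controls, as for LAMC1, with which it shares the basement membrane. With sh52 replicate 2 alone, COL15A1 differed from shGFP by 0.33 and SMOC1 by -2.21.

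Among 12 tested laminin receptors other than integrins the median was 0.41 with sh50 and 0.14 with sh52. By the unadjusted p, 3 were higher and 0 lower with sh50, against 4.06% and 4.19% of all features, and 2 were higher and 1 lower with sh52, against 4.27% and 4.51%. With sh50 they were CD151, POMT1 and MCAM, and with sh52 SDC2, SV2A and, lower, SDC1. The syndecans SDC2 and SDC1, heparan sulfate proteoglycans, lay on opposite sides. SDC2 differed by 0.93 ± 0.40 with sh50 and 1.12 ± 0.40 with sh52 (SE; adjusted p = 0.628 and 0.541), and SDC1 by -0.68 ± 0.32 and -0.99 ± 0.32 (adjusted p = 0.653 and 0.526). POMT2, which starts the sugar chain on dystroglycan that laminin binds, differed by 0.66 ± 0.33 with sh50 (SE; adjusted p = 0.688) and SDC4 by 0.084 ± 0.47 (adjusted p = 0.992). With sh52, SV2A, a synaptic vesicle protein, differed by 0.52 ± 0.20 (SE; adjusted p = 0.557) and UTRN, utrophin, by -0.33 ± 0.22 (adjusted p = 0.703). Leaving out the array labelled sh52 replicate 1, SDC2 differed by 0.52, SDC1 by -0.64 and UTRN by -0.13.

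Among 19 tested genes listed as integrin ligands other than laminins, the median was 0.45 with sh50 and 0.84 with sh52. Binding to an integrin was not tested for any of them. By the unadjusted p, 5 were higher with sh50, against 4.06% of all features, and 7 with sh52, against 4.27%, and 0 were lower, against 4.19% and 4.51%. FN1, MFGE8, TGFB3 and COL1A2 were among them in both, TGFB2 with sh50, and THBS2, FBN1 and COL1A1 with sh52. COL1A2, a fibrillar collagen chain bound by the ITGA11 and ITGA2 receptors, stood at 13.28 and 12.48 with shGFP, 14.54 and 14.38 with sh50, and 15.01 and 13.70 with sh52. All hairpin arrays of this ligand lay above both controls. It differed by 1.58 ± 0.48 with sh50 and 1.48 ± 0.48 with sh52 (SE; adjusted p = 0.526 for each), and for sh52 by 0.83 without the array labelled sh52 replicate 1. With sh50, CCN2 and CCN1, matricellular ligands, differed by 1.76 ± 0.97 and -0.14 ± 0.93 (SE; adjusted p = 0.734 and 0.993), and TNC, tenascin C, by -0.24 ± 0.63 (adjusted p = 0.981). With sh52, ICAM1, a ligand of leukocyte integrins, differed by 1.27 ± 0.84 (SE; adjusted p = 0.698), CCN1 by -0.89 ± 0.93 (adjusted p = 0.82) and CCN2 by -0.27 ± 0.97 (adjusted p = 0.958). Leaving out the array labelled sh52 replicate 1, CCN1 differed by 0.15 and CCN2 by 0.12. ICAM1 stood at 7.45 on the array labelled sh52 replicate 1 and at 4.72 to 5.503 on the other 5, and without that array its difference was -0.094. By limma 0 genes of the 4 lists passed an adjusted p of 0.05 in either comparison.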

How the data were processed

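Total RNA was hybridised to Affymetrix human transcriptome arrays. Per the labels, the authors ran RMA (core level, Expression Console). The deposited values are on a log scale and are read here as log2. The submitters' processing notes also name Transcriptome Analysis Console. Base 2, the usual output of RMA, is assumed for the logarithm. A fold depends on that base and on any later scaling, neither given in the sources used here. The table held 70523 features, 67528 of them transcript clusters, of which platform annotation named 23781 with 1 symbol and 1543 with several. Transcript clusters at or above the median mean of 3.98 were tested (33764).

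All 6 arrays entered one limma fit of the group means (limma 3.58.1, R 4.3.3) with 3 residual and 2.67 prior degrees of freedom. Replicate numbers were compared with the hairpin as a block (2 and 3.05). Tests were two-sided with Benjamini-Hochberg adjustment over all 33764. With 2 arrays a group, their number limits every value. No test of pairing by replicate number was run, and the fit of the group means did not pair arrays. The correlation of replicate differences over all features was 0.39 between shGFP and sh50, 0.35 between shGFP and sh52 and 0.052 between sh50 and sh52. SAT1 was named, with the 4 highest and 4 lowest members of each comparison (3 each way between hairpins) and 2 genes each way of each list. The members, lists and alternatives were chosen with earlier results of these data known. Array features carry no coordinates here, since their annotation names no build. Alternatives were a replicate block, other filters, limma's trend and robust options, quantile normalization or median centring, a fit of the compared groups alone, averaging the features of each gene, and leaving out each array.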

Additional observations from a re-analysis of the deposited data

Results flagged for a closer look

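ITGA2B, the platelet fibrinogen receptor chain, had both sh50 arrays below and both sh52 arrays above the controls, which stood at 4.29 and 4.24. The sh50 arrays stood at 4.10 and 4.18 and the sh52 arrays at 4.33 and 4.30. The difference between the hairpins was 0.18 ± 0.15 (SE, limma; adjusted p = 0.882), which did not pass the test.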

How the results depend on the processing

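No laminin or integrin gene passed an adjusted p of 0.05 under any alternative run, in any of the 4 comparisons. With the replicate block, 0 genes passed in each hairpin comparison, and the lowest adjusted p was 0.315 for sh50, 0.349 for sh52 and 0.447 between the hairpins. With this replicate block LAMA4 differed by 2.03 ± 0.16 (SE) with sh50 and by 2.40 ± 0.16 with sh52, and it changed no call. Without the filter on low values, the laminin median for sh52 was 0.28, because the 2 dim laminins then enter. The medians between the hairpins were near 0 and changed sign. They were -0.0097 (laminins) and -0.00099 (integrins) after quantile normalization again, -0.065 and -0.060 with centred arrays, and ranged from -0.091 to 0.23 and from -0.020 to 0.071 when 1 array was left out. The cause was not tested.

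For single genes, ranges with 1 array left out were read only for SAT1 and the highest and lowest differences of each comparison. Other members were not read in this way, among them ITGA2 with sh50, at 0.91 and -0.94 in the same-number pairs. Among the genes read, leaving out 1 array turned the sign of other values, given as lowest and highest. With sh50 these were ITGAD (-0.11 to 0.032), ITGA10 (-0.84 to 0.13), SAT1 (-0.86 to 0.16), ACTN1 (-0.36 to 0.11), COL4A2 (-0.10 to 0.032), SMOC1 (-2.75 to 0.056), SDC4 (-0.44 to 0.61), CCN1 (-1.22 to 0.94) and TNC (-0.99 to 0.51). With sh52 they were LAMA1 (-0.42 to 0.22), ITGA10 (-0.85 to 0.12), SAT1 (-1.36 to 1.63), ICAM1 (-0.094 to 2.64), CCN2 (-1.41 to 0.87) and CCN1 (-1.94 to 0.15). Between the hairpins they were ITGA2 (-1.90 to 0.027) and SAT1 (-1.01 to 1.98), and between replicates ITGAE (-0.18 to 0.029) and ITGA6 (-0.33 to 0.087). LAMA4 kept its direction, at 1.68 to 2.38 with sh50 and 2.05 to 2.75 with sh52, as did ITGA11 at 1.72 to 2.68 and 1.35 to 2.30. The counts without the array labelled sh52 replicate 1 were chosen after seeing the data. Counts at an unadjusted p under 0.05 moved most for the replicate comparison, from 7 (10.4% of all features) to 2 (7.45%) without the hairpin block. Among the genes read, other differences moved by over 1.5 times but kept their sign when 1 array was left out. With sh50 they were CCN2 (0.62 to 2.90), NID2 (0.31 to 1.69), TNS1 (0.12 to 1.07), FERMT3 (0.42 to 0.93), ILK (-0.53 to -0.047), SDC1 (-0.97 to -0.40) and ITGA2B (-0.16 to -0.078). With sh52 they were SMOC1 (-2.39 to -0.034) and NTN4 (-1.31 to -0.35). Between replicates such differences were ITGAV (0.27 to 1.01), LAMA1 (-0.54 to -0.17), ITGB8 (-0.43 to -0.13) and SAT1 (0.75 to 2.00). With 2 arrays a group, dim genes near the filter have the least signal over background.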
